A study of Mus musculus with 6 samples.

Results

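The replication-dependent histone genes were taken as the GENCODE M21 protein-coding genes whose symbol starts with Hist1h, Hist2h, Hist3h or Hist4h. The rule gave 67 of 21938 protein-coding gene records on the reference chromosomes of GRCm38. It used no measured value. FOXC2 ChIP-seq was performed on podocytes sorted by FACS from adult mice with the mT/mG reporter, in which a Cre recombinase expressed in podocytes switches a membrane reporter from red to green, so both conditions carried the same alleles and the sort kept cells in which Cre had acted. Control mice received PBS, and injured mice received adriamycin (ADR), a podocyte toxin, at 18 mg/kg on days 0 and 7. Podocytes were collected on day 9, with 3 samples per condition and the antibody labelled Abcam b5060.

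Each condition is represented by 1 peak list that the authors describe as pooled from its samples. Every peak name in both lists holds the tag of replicate 1 (R1), so whether a peak stands for 3 samples or for 1 could not be settled from the files. No value therefore has a replicate error, and no difference between the lists was tested. The lists are called PBS and ADR here. A peak's fold enrichment is the authors' value over the local control of its own list. On the reference chromosomes the PBS list held 41075 peaks and the ADR list 40067, and any peaks off them were left out. The read depth behind the lists is unknown. A fold from pooled cells cannot tell fewer bound cells from less binding per cell. As a check of the cell type, the podocyte marker genes *Nphs1*, *Podxl* and *Wt1* each had a promoter peak in each list. Of the proximal tubule markers *Lrp2*, *Slc34a1* and *Slc5a2*, 1 of 3 did, as did 1 of 3 endothelial markers (*Pecam1*, *Kdr* and *Cdh5*). Of all coding genes 44.1% had a PBS and 41.5% an ADR promoter peak, so counts this small do not settle the cell type. A peak is not a measure of expression.

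Replication-dependent histone genes encode the bulk of the core histones H2A, H2B, H3 and H4 and of the linker histone H1. They are transcribed mainly in S phase, most have no intron, and their mRNAs end in a stem-loop in place of a poly(A) tail. They lie in clusters that gather in the histone locus body around the coactivator NPAT, and H2A and H2B genes often share 1 promoter that fires in both directions. Differentiated podocytes rarely divide. FOXC2 is a forkhead TF.

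The members fell into 4 clusters on GRCm38. The Hist1 cluster held 54 members on chromosome 13 (chr13:21715763-23934851), and it was split wherever neighboring gene starts lay more than 100 kb apart. Locus Hist1 A (chr13:21715763-21837530) held 18 members, Hist1 B (chr13:22035164-22043676) held 5, Hist1 C (chr13:23531050-23764406) held 29 and Hist1 D (chr13:23933773-23934851) held 2. The Hist2 cluster (chr3:96219865-96270132) held 10 members, Hist3 (chr11:58948920-58956830) held 2 and Hist4 (chr6:136801553-136804415) held 1. By histone type there were 6 H1, 18 H2A, 18 H2B, 12 H3 and 13 H4 genes. The annotation gave 61 of the 67 a single exon.

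The H4 promoters are shown because most H4 genes had a peak there and because they hold a common block of sequence. Capitals mark GGTCCG, the core of the element that HINFP is known to bind in H4 promoters. The windows were read 5′ to 3′ on the strand of the gene from the RefSeq copy of GRCm38 and end at or before the annotated start. Those on the plus strand lie at chr13:23531005-23531049 (*Hist1h4h*), chr13:21734982-21735051 (*Hist1h4j*) and chr13:21811665-21811734 (*Hist1h4m*). Those on the minus strand lie at chr13:23698469-23698538 (*Hist1h4c*), chr13:22041373-22041442 (*Hist1h4i*), chr13:23551679-23551748 (*Hist1h4f*), chr13:21750550-21750619 (*Hist1h4k*) and chr6:136804428-136804497 (*Hist4h4*).
Hist1h4h: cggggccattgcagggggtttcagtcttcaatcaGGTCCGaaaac
Hist1h4c: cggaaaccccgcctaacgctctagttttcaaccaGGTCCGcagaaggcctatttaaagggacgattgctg
Hist1h4i: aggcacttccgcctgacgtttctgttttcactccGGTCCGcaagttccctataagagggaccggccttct
Hist1h4f: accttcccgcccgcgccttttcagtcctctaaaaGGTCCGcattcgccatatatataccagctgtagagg
Hist1h4j: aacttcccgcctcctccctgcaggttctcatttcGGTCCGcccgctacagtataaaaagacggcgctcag
Hist1h4k: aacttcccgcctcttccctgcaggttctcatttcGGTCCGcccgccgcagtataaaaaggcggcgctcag
Hist1h4m: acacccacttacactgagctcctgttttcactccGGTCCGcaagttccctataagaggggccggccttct
Hist4h4: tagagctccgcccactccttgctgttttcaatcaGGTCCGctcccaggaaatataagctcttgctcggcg

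The windows of *Hist1h4j* and *Hist1h4k* were identical at 66 of 70 bases, and those of *Hist1h4i* and *Hist1h4m* at 54 of 70. *Hist1h4m* and *Hist1h4n* shared all 250 bases before their starts. GGTCCG lay on the gene's strand within 250 bp before the start in 12 of 13 H4 genes, the exception being *Hist1h4a*. Among the other members only *Hist1h2bh* and *Hist1h3i* held it on either strand. On either strand it was found in 7.69% of the promoters of that length of all coding genes. The distance from its first base to the start ran from 11 bp (*Hist1h4h*) to 80 bp (*Hist1h4k*).

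FOXC2 peaks at the histone promoters were concentrated at H4 genes. A promoter was taken as 1 kb upstream to 100 bp downstream of the gene start. In the PBS list 11 of 13 H4 genes had a promoter peak (84.6%, 95% Wilson interval 57.8 to 95.7%), against 17 of the 54 other members (31.5%, 20.7 to 44.7%). In the ADR list 10 of 13 H4 genes did (76.9%, 49.7 to 91.8%), against 17 of 54 (31.5%, 20.7 to 44.7%). Of all coding genes 44.1% had a PBS promoter peak and 41.5% had an ADR promoter peak. The intervals cover counting error only, and members that share a promoter are not independent.

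Over all 67 members the share was near that background, with 28 members (41.8%) in PBS and 27 (40.3%) in ADR. It was 2 of 6 for H1, 6 of 18 for H2A, 7 of 18 for H2B and 2 of 12 for H3 in each list. The H4 share lay above that of all coding genes and the other types lay below it, though for H1, H2A, H2B and H3 the intervals included the level of all coding genes. Because 5 peaks of each list lay at the promoters of 2 members, the promoter peaks numbered 24 in each list when each was counted once.

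**Figure D1:**
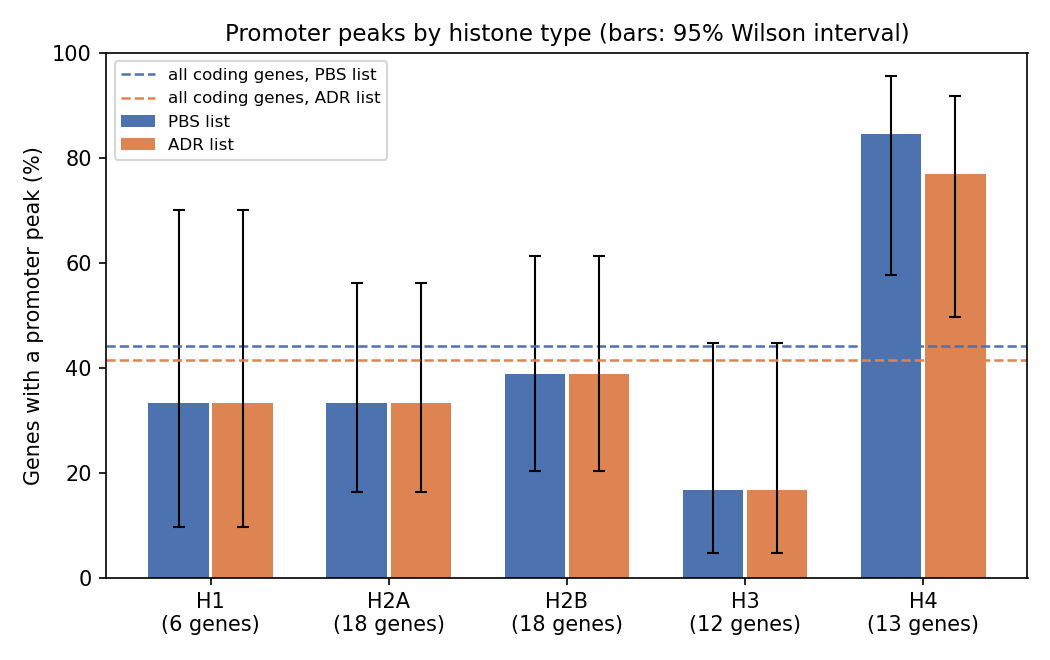
Percent of the genes of each histone type with a FOXC2 promoter peak in the PBS list and the ADR list, with 95% Wilson intervals. The dashed lines give all coding genes (44.1% and 41.5%). H4 lies above both lines in each list, at 84.6% and 76.9%, and H3 is the lowest at 16.7%.

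Of the H4 genes of locus Hist1 C, all except *Hist1h4b* had a promoter peak with a PBS fold of at least 10. *Hist1h4h* had the highest fold of any cluster peak, 23.3 in the PBS list, and had 9.14 in the ADR list. *Hist1h4c* had 16.7 and 10.3. *Hist1h4f* had 14.5 and 12.8. At these 3 genes the PBS peak was the stronger. It was so too at *Hist1h4d* of the same locus (12.7 and 9.10) and *Hist1h4i* of locus Hist1 B (15.0 and 10.2).

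*Hist1h4a* had the higher fold in the ADR list, with 10.2 in PBS and 13.5 in ADR. *Hist1h4b*, its neighbor on the opposite strand, had 5.75 and 6.10. *Hist2h4*, the H4 gene of the Hist2 cluster, had 5.05 and 6.44. *Hist1h4j* of locus Hist1 A had 6.70 and 4.44. *Hist4h4*, the only member of the Hist4 cluster, had 6.43 and 3.20. *Hist1h4k*, whose sequence nearly matches *Hist1h4j*, had 7.04 in the PBS list and no ADR peak within 10 kb. *Hist1h4m* and *Hist1h4n* had no peak in either list within 10 kb.

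The median fold over the H4 genes with a promoter peak was 10.2 in the PBS list (11 genes, range 5.05 to 23.3) and 9.12 in the ADR list (10 genes, 3.20 to 13.5). Over the other members with one it was 5.92 (17 genes, 2.99 to 20.3) and 5.43 (17 genes, 3.91 to 7.68). All coding promoter peaks had a median of 7.64 with quartiles of 5.49 and 12.0 in the PBS list. In the ADR list the median was 7.94 with quartiles of 5.57 and 12.4. The H4 medians thus lay inside the middle range of promoter peaks, and those of the other members lay near its lower end.

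**Figure D2:**
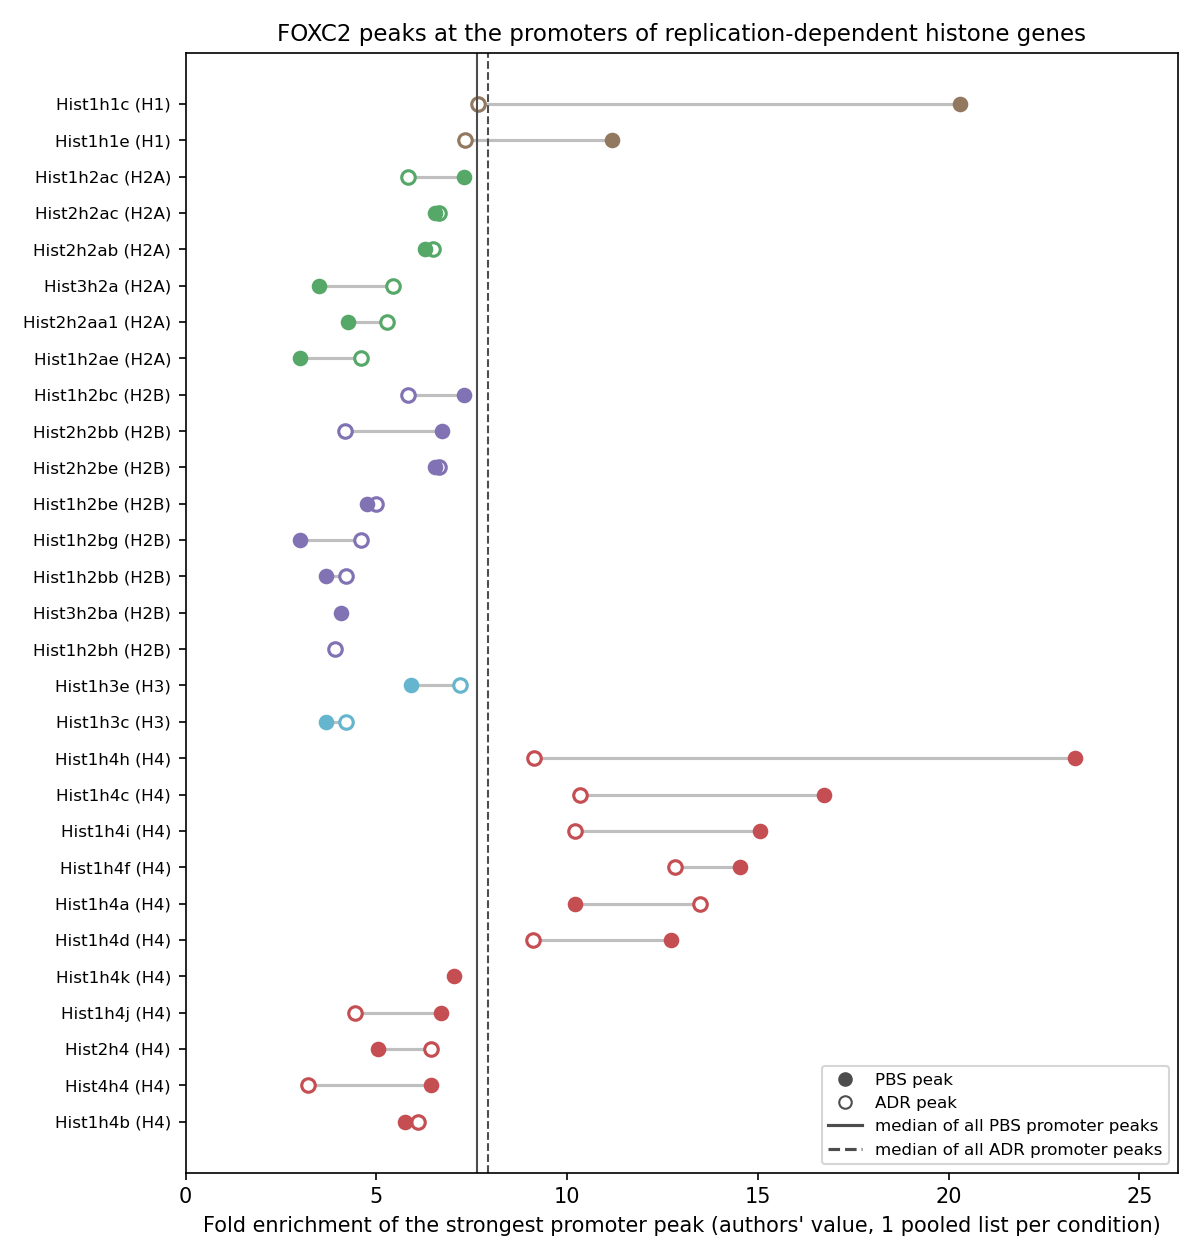
Authors' fold enrichment of the strongest FOXC2 promoter peak of each of the 29 members with a promoter peak in either list, by histone type. Filled points are the PBS list, open points the ADR list, and vertical lines the medians of all promoter peaks (7.64 and 7.94). *Hist1h4h* and *Hist1h1c* have the highest PBS values, 23.3 and 20.3. The ADR point of *Hist1h1c* (7.68) is its peak at the start, while the ADR peak at the place of the PBS summit, inside the gene, has 14.5.

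The H4 summits lay close to the gene starts (negative values upstream). The 11 PBS summits lay from −103 to 140 bp of the start, with a median of −11 bp. The 10 ADR summits lay from −109 to 41 bp, with a median of −52 bp. The GGTCCG block lies 11 to 80 bp before the start, so nearness to it and nearness to the start were not told apart. The summits also lay close to the block shown above. Measured from its first base, the PBS summits of the 10 H4 genes with both a peak and the block lay from −57 to 114 bp, with a median of 46.5 bp (negative values upstream). The 9 ADR summits lay from −44 to 89 bp, with a median of 23 bp. A summit within 100 bp of the block was found at 9 of 10 genes in the PBS list, *Hist1h4h* being the exception, and at 9 of 9 in the ADR list.

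The H1 genes with promoter peaks were *Hist1h1c* and *Hist1h1e*, which encode 2 of the linker histones common in somatic cells. Their promoters are shown with AAACACA, the AC box of H1 promoters, the CCAAT box and TATAAA in capitals. *Hist1h1c* lies on the plus strand (chr13:23738678-23738807) and *Hist1h1e* on the minus strand (chr13:23622559-23622688), and each window holds the 130 bases before the start.
Hist1h1c: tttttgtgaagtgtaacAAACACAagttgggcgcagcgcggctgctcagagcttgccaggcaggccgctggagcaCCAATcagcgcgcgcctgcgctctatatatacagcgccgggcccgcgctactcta
Hist1h1e: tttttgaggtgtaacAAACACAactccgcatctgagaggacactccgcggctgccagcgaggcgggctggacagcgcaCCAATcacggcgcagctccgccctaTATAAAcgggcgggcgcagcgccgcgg

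*Hist1h1c* was covered by 1 PBS peak of 1483 bp with a fold of 20.3, whose summit lay 901 bp into the gene. In the ADR list the same stretch held 2 peaks. The first spanned the start, with a fold of 7.68 and a summit 53 bp downstream. The second lay inside the gene, with a fold of 14.5 and a summit 883 bp downstream. The strongest point of this gene was therefore in its single exon and not at its promoter in both lists.

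*Hist1h1e* had a peak at its start in both lists, with 11.2 in PBS and 7.33 in ADR, and summits 61 and 32 bp downstream. The testis gene *Hist1h1t* had no promoter peak, nor did *Hist1h1a*, *Hist1h1b* and *Hist1h1d*. *Hist1h1b* had no peak within 10 kb in either list. Its promoter holds the AC box, the CCAAT box and TATAAA, as does that of *Hist1h1e*.

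At the divergent H2A and H2B pairs peaks were few. There were 12 such pairs, with 175 to 305 bases between the starts, and 3 of them had a peak between or at the starts in each list. Of all coding genes, 44.1% had a PBS and 41.5% an ADR promoter peak. Those shares are per gene over the longer promoter window, so they are not like for like with the pairs. At *Hist1h2bq*/*Hist1h2ao* and *Hist1h2ap*/*Hist1h2br* no stretch of 50 bases around the starts was unique in GRCm38. Their lack of a peak therefore cannot be read as absence of FOXC2. Other pairs without a peak were only partly unique within 300 bp of the starts, as at *Hist1h2bl*/*Hist1h2ai* (59.6% and 60.1%). *Hist1h2ba*/*Hist1h2aa*, also without a peak, had 91.8% and 100%, and *Hist1h2ac*/*Hist1h2bc*, with one, had 71.2% and 61.8%. The part of uniqueness in these calls was not tested. The pair *Hist1h2ac*/*Hist1h2bc* had a fold of 7.30 in PBS and 5.83 in ADR. The pair *Hist2h2ac*/*Hist2h2be* had 6.53 and 6.65. The pair *Hist1h2ae*/*Hist1h2bg* had 2.99 and 4.60. The PBS peak of the last pair had a −log10 q of 1.34, the lowest in its list. The folds of these pairs lay below the median of all promoter peaks of the same list.

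The stretch between the starts is shown for a pair with a peak, *Hist1h2ac*/*Hist1h2bc* (chr13:23683949-23684198), and for a pair of the same locus without one, *Hist1h2bf*/*Hist1h2ad* (chr13:23574197-23574380). Both are on the plus strand of GRCm38, with the CCAAT box, the TATA box in its form TATAAA, and the octamer ATTTGCAT (the element that OCT1 is known to bind) in capitals on either strand. The pair without a peak holds CCAAT alone.
Hist1h2ac/Hist1h2bc: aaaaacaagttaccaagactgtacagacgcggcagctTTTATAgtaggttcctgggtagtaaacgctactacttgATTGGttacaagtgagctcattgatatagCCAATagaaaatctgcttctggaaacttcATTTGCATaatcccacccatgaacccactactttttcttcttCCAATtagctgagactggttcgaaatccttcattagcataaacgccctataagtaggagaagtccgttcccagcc
Hist1h2bf/Hist1h2ad: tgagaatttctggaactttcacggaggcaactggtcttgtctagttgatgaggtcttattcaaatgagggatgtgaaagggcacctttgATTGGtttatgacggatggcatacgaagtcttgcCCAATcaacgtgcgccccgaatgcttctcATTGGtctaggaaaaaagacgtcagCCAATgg

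CCAAT was found between the starts of all 12 pairs, TATAAA in 7, and the octamer in 5. The 3 pairs with a peak each held the CCAAT box, the TATA box and the octamer. So did the pairs *Hist1h2ah*/*Hist1h2bk* and *Hist1h2ba*/*Hist1h2aa*, which had no peak between the starts.

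Other H2A and H2B genes with a promoter peak in both lists were *Hist2h2ab* (6.27 in PBS and 6.48 in ADR), *Hist2h2aa1* (4.27 and 5.28), *Hist2h2bb* (6.73 and 4.18), *Hist1h2bb* (3.69 and 4.20), *Hist1h2be* (4.75 and 5.00) and *Hist3h2a* (3.48 and 5.43). Most of these folds were higher in the ADR list, with *Hist2h2bb* the exception. Some of the peaks cannot be given to 1 gene. The start of *Trim17* lies beside that of *Hist3h2a*, at the same distance from the summits. *Bola1* starts 331 bp from the PBS summit and 352 bp from the ADR summit of *Hist2h2ab*, whose own start lies 175 and 196 bp from them. The start of the record of *Hist1h2be* lies inside *Hist1h1e*, and the peaks counted for it are in that gene. *Hist3h2ba* had a promoter peak in the PBS list alone, with a fold of 4.08.

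*Hist1h2bh* had a promoter peak in the ADR list alone, with a fold of 3.91, but the site lies inside *Hist1h3f* and was also called in the PBS list, with a fold of 5.80, just outside the promoter window. Of the H3 genes, *Hist1h3e* had a peak at its start with 5.92 in PBS and 7.20 in ADR. *Hist1h3c* was reached only by the peak of *Hist1h2bb*. The remaining 10 H3 genes, among them all 3 of the Hist2 cluster (*Hist2h3b*, *Hist2h3c1* and *Hist2h3c2*), had no promoter peak. *Hist2h2aa2* had none either, and the 38 members with no promoter peak in either list were 4 H1, 12 H2A, 10 H2B, 10 H3 and 2 H4 genes.

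Within 10 kb of a gene start, 54 of 67 members (80.6%) had a PBS peak and 48 (71.6%) had an ADR peak, beside 58.8% and 55.9% of all coding genes. Neighboring members count the same peak, up to 6 members for 1 peak, so these shares are not those of independent genes. Summed over the members there were 107 PBS and 104 ADR peaks, but only 36 and 33 distinct ones. Counted once, 23 PBS and 20 ADR peaks lay at Hist1, 7 and 8 at Hist2, 4 and 4 at Hist3, and 2 and 1 at Hist4. The exact Poisson intervals of the totals, 25.2 to 49.8 and 22.7 to 46.3, overlap.

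The peaks were not spread evenly over Hist1. Locus Hist1 C had 17 distinct PBS and 17 ADR peaks for 29 members. Locus Hist1 B had 3 and 2 for 5 members. Locus Hist1 A had 3 PBS peaks and 1 ADR peak for 18 members, and Hist1 D had none for its testis genes *Hist1h2ba* and *Hist1h2aa*. The 13 members with no peak in either list within 10 kb were these 2 and 11 of Hist1 A. All members of Hist1 B, Hist1 C, Hist2, Hist3 and Hist4 had a peak in each list within that distance.

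**Figure D3:**
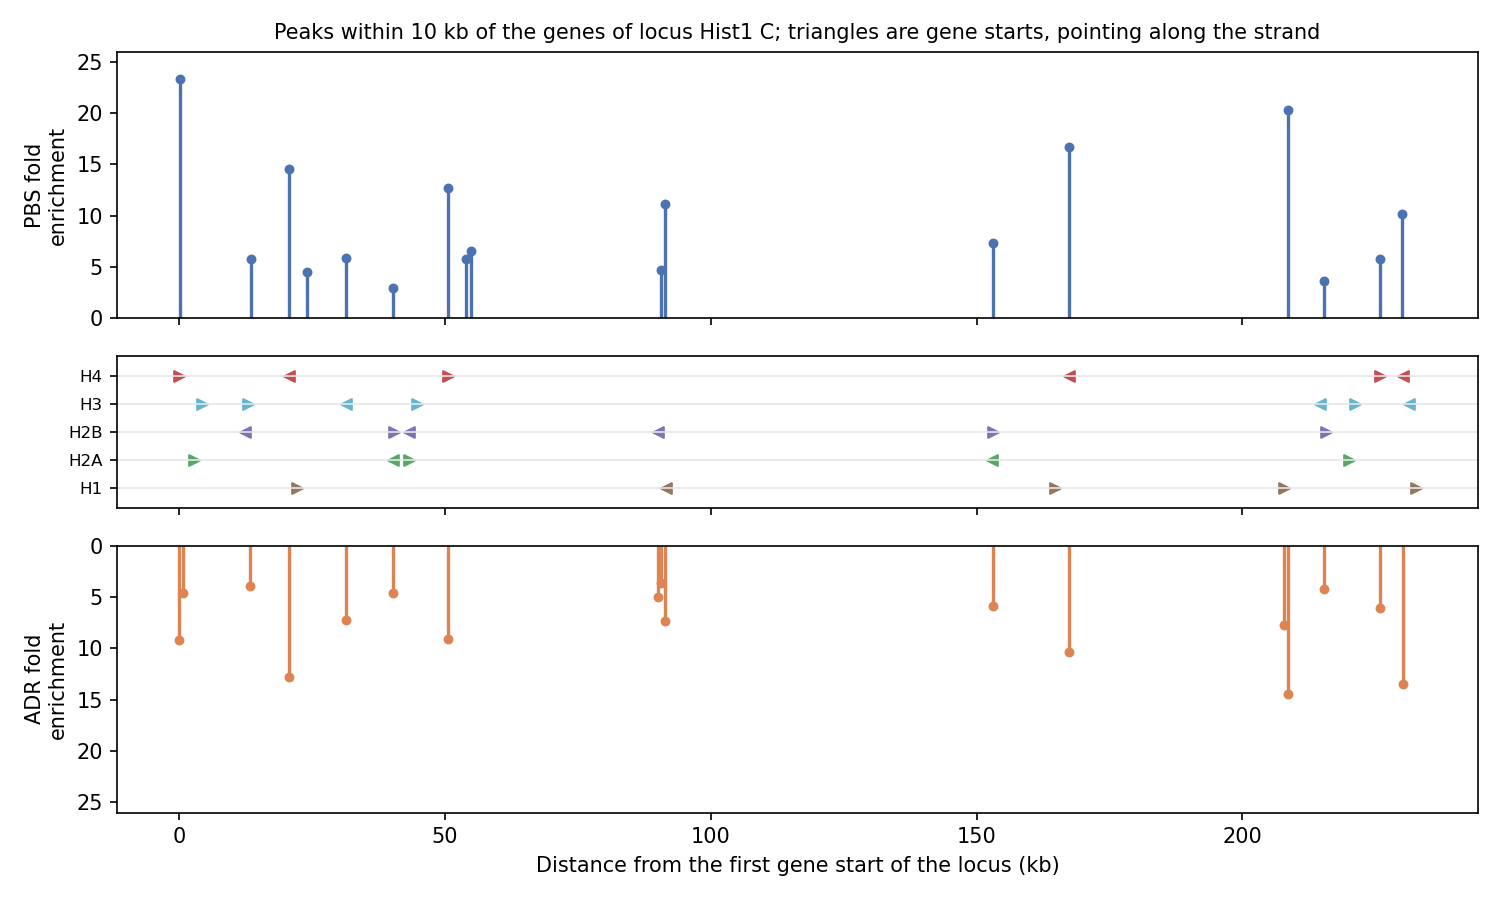
Fold enrichment of the distinct FOXC2 peaks of locus Hist1 C in the PBS list (upper panel) and the ADR list (lower panel, axis inverted), placed by summit in kb from the first gene start, with the 29 gene starts by histone type between them. The tall PBS peaks stand at H4 and H1 genes, from *Hist1h4h* (23.3) at the left to *Hist1h4a* (10.2) at the right.

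Of the distinct peaks, 24 of 36 in PBS and 24 of 33 in ADR lay at a member promoter. In the PBS list 4 others lay inside a member, 2 at the promoter of another gene and 6 elsewhere. In the ADR list these numbers were 2, 1 and 6. The promoters of other genes were those of *Rnf187*, whose start lies upstream of *Hist3h2ba* near the 10 kb limit, and of *H2afj*, which encodes a replication-independent H2A and lies beside *Hist4h4*. The *H2afj* peak was called in the PBS list alone, with a fold of 4.90.

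More ADR than PBS peaks were counted at 13 members (19.4%) and fewer at 15 (22.4%), beside 10.8% and 18.7% of all coding genes. The order turned with the window, to 5 with more and 2 with fewer within 1 kb and 10 with more and 8 with fewer within 5 kb. Within 10 kb, each of the 13 had 1 peak more. Of these 13, 8 lay in Hist1, at *Hist1h1c*, *Hist1h1e*, *Hist1h2af*, *Hist1h2bb*, *Hist1h2be*, *Hist1h3c*, *Hist1h3g* and *Hist1h4h*. The other 5 lay in Hist2, at *Hist2h2aa1*, *Hist2h2aa2*, *Hist2h3c1*, *Hist2h3c2* and *Hist2h4*.

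At all 8 members of Hist1 the extra peak came from 1 of 3 places where 1 PBS peak overlapped 2 ADR peaks. At *Hist1h4h*, a PBS peak of 987 bp overlapped ADR peaks of 465 and 284 bp. At *Hist1h2be* the PBS peak was 917 bp long and the ADR peaks 602 and 327 bp. The third place was *Hist1h1c*, described above. Such a site was 1.33% of the sites called in both lists over the genome, and the reverse, 1 ADR peak over 2 or more PBS peaks, was 2.63% and was not seen at the clusters. The 3 places were among 23 member promoter sites called in both lists. Of all coding promoter sites called in both lists, 184 of 8104 were split in this way and 333 in the reverse. Of those with a PBS fold of at least 10, 113 of 3186 were, and 146 in the reverse.

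When overlapping peaks were merged and counted as 1 site, 5 members (7.46%) had more ADR sites, all in Hist2, and 15 (22.4%) had fewer. The shares over all coding genes were 10.5% and 17.5%. The extra sites in Hist2 came from 2 ADR peaks with no PBS partner. The first, with a fold of 8.84, lay 1735 bp downstream of the start of *Hist2h3c2* and past its end. The second, with 6.63, lay 4700 bp downstream of the start of *Hist2h4*.

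The largest difference was at *Hist1h4d*, with 3 PBS peaks and 1 ADR peak. At its own promoter a peak was called in both lists, and the PBS peaks without an ADR partner lay 3480 and 4316 bp downstream, inside the long record of *Hist1h2be*, with folds of 5.80 and 6.53. The other members with fewer ADR peaks had 1 peak less. They were *Hist1h1d*, *Hist1h2ah*, *Hist1h2ai*, *Hist1h2ak*, *Hist1h2bk*, *Hist1h2bl*, *Hist1h2bn*, *Hist1h3d*, *Hist1h3e*, *Hist1h3h*, *Hist1h4f*, *Hist1h4k*, *Hist2h2bb* and *Hist4h4*. Those at *Hist1h2ak* and *Hist1h2bn* came from the peak of *Hist1h4k*, so 1 peak counted for several genes.

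Of the 36 distinct PBS peaks, 9 (25.0%, 95% Wilson interval 13.8 to 41.1%) overlapped no ADR peak, beside 33.1% of the whole PBS list. Of the 33 ADR peaks, 3 (9.09%, 3.14 to 23.6%) overlapped no PBS peak, beside 32.3% of the ADR list. All 20 ADR peaks of Hist1 overlapped a PBS peak, and 6 of its 23 PBS peaks had no ADR partner. The peaks of 1 list alone lay mostly away from the promoters. Of 25 merged sites at member promoters, 23 were called in both lists (92.0%), beside 81.7% of all coding promoter sites. Of 14 other cluster sites 4 were, beside 50.1% of all sites, promoters included. The whole-list shares above also include peaks away from promoters.

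The strongest PBS peak without an ADR partner was at the promoter of *Hist1h4k*. The next lay downstream of *Hist1h4d*, near *Hist1h2ah* (8708 bp downstream, 5.23) and near *Hist2h2bb* (8466 bp downstream, 5.09). The ADR peaks without a PBS partner were the 2 of Hist2 and 1 in *Hist3h2a*, with a fold of 4.91.

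At promoter sites called in both lists, the ADR fold was lower than the PBS fold at 12 of 23 member sites (52.2%), beside 54.4% of all coding promoter sites. For H4 it was lower at 7 of 10 sites, with a median log2 difference, ADR minus PBS, of −0.52 (order-statistic 95% interval −1.01 to 0.35, over sites). For the other members it was lower at 5 of 13, with a median of 0.05 (−0.57 to 0.31). Over all coding promoter sites the median was −0.06 (−0.07 to −0.04). The intervals of H4 and of the other members include 0 and overlap.

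Sites with a strong PBS fold more often had a lower ADR fold, in a choice that used the PBS fold itself. Among the coding promoter sites called in both lists with a PBS fold of at least 10, 67.6% had a lower ADR fold, with a median log2 difference of −0.21. The histone genes had 8 such sites, 6 at H4 and 2 at H1 genes, and 7 of them had a lower ADR fold, with a median of −0.52. At *Hist1h1c* this took the stronger of its 2 ADR peaks. Since the folds are ratios to each list's own control and depth, a lower fold in 1 list is not a measured loss of binding.

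The PBS peaks covered more bases than the ADR peaks at 14 of the 23 member sites (60.9%), beside 52.1% of all coding promoter sites. Their median covered lengths were 470 and 416 bp.

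**Figure D4:**
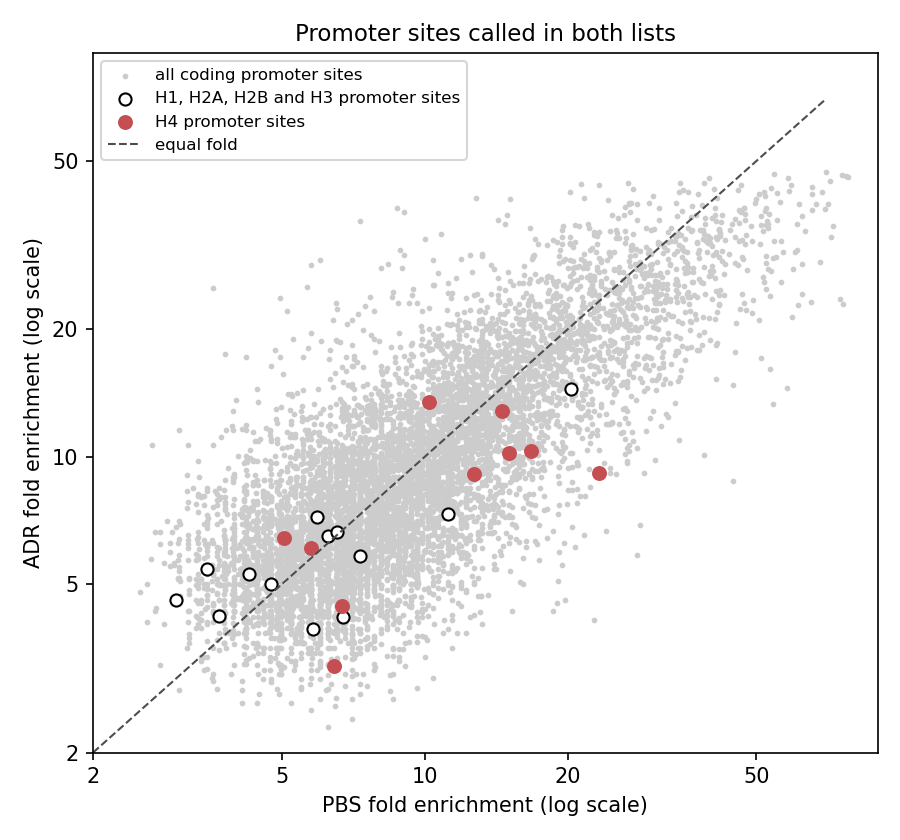
PBS and ADR fold enrichment at promoter sites called in both lists, on log axes, with all coding promoter sites in grey, H4 sites filled and sites of the other histone types open. Of the 10 H4 sites, 7 lie below the line of equal fold, and of the 13 others 5 do.

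Sequence around the summits was searched for exact matches on either strand within 100 bp. The forkhead motif was a purine, a pyrimidine, AAA, a pyrimidine and A. It was present at 6 of 36 PBS cluster peaks (16.7%, 95% Wilson interval 7.87 to 31.9%) and 6 of 33 ADR cluster peaks (18.2%, 8.61 to 34.4%), beside 19.5% and 25.1% of the whole lists. At H4 promoter peaks it was present at 1 of 11 and 1 of 10, beside 8.88% and 8.63% of all coding promoter peaks. At the promoter peaks of the other members it was present at 4 of 13 in PBS and 2 of 14 in ADR. The form GTAAACA was found at 1 PBS and 1 ADR cluster peak.

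In the 250 bp before the start, 26 of 67 members (38.8%) held a forkhead match, beside 23.7% of all coding genes, and 3 of 13 H4 genes did. It was present in 12 of 29 members with a promoter peak and 14 of 38 without. A forkhead match can share bases with TATAAA, and 9 of the 36 matches did, at 8 members. It can also share bases with the AC box, as in the *Hist1h1c* and *Hist1h1e* promoters shown above (ACAAACA). Overlaps with elements other than TATAAA were not counted. The promoters of H2A, H2B and H3 genes had median GC contents of 43.0%, 42.4% and 38.8%, those of H1 and H4 51.4% and 47.6%, and all coding genes 54.0%.

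GGTCCG was present within 100 bp of the summit at 9 of 11 H4 promoter peaks in PBS and 9 of 10 in ADR, beside 11.8% and 12.6% of all coding promoter peaks. Since 12 of 13 H4 genes hold it 11 to 80 bp before the start, nearly any peak near an H4 start has it in range. This comparison therefore follows largely from the sequence of H4 promoters. TATAAA was present at 25.0% of PBS and 21.2% of ADR cluster peaks, beside 4.80% and 6.17% of the whole lists. CCAAT was present at 27.8% and 42.4%, beside 20.2% and 20.3%. The octamer was present at 5 of 36 and 1 of 33 cluster peaks, beside 0.726% and 0.819%. These elements are common to histone promoters, and members without a promoter peak held them too. CCAAT was in 32 of 38 such promoters of 250 bp and TATAAA in 20 of 38. GGTCCG was in 3 of 38, among them *Hist1h4m* and *Hist1h4n*.

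The WT1 motif (G, any base, G, G or T, GGG, A or C and G) was present at 8 of 36 PBS and 3 of 33 ADR cluster peaks, beside 28.6% and 29.0% of the whole lists. At H4 promoter peaks it was found at 6 of 11 and 2 of 10, beside 30.1% and 30.9% of all coding promoter peaks. Within 50 bp of the summit it was found at 1 of 11 and 1 of 10, beside 21.2% and 21.8%. The KLF motif (GGG, C or T, G, G or T and GG) was present at 6 of 36 PBS and 9 of 33 ADR cluster peaks, beside 19.3% and 18.6% of the whole lists. The TEAD motif (a purine, CATTCC and A or T) was at 1 cluster peak of each list, beside 7.73% and 9.25%. TGACGTCA, the CRE, was at 0 and 2 cluster peaks, beside 1.10% and 1.02%. The AP-1 motif (TGA, C or G and TCA), the E2F motif (TTT, C or G and GCGC) and the CTCF motif were at none in either list, which allows a share of up to 9.64% of PBS and 10.4% of ADR cluster peaks (upper bounds of the 95% Wilson intervals). AAACACA was within 100 bp of the summit at 1 cluster peak of each list, beside 5.01% and 6.05%. In the whole lists AP-1 was at 9.33% and 4.02% and E2F at 0.424% and 0.384% of peaks, and CTCF was at 618 of 41075 PBS and 334 of 40067 ADR peaks.

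Near-identical histone genes can share or lose reads of 50 bases, so the share of 50-base words that occur once in GRCm38 was taken for each promoter window. It was at least 80% for 40 of 67 members, 10 to 80% for 19 and under 10% for 8. The 8 were *Hist1h2bq*, *Hist1h2ao*, *Hist1h4m*, *Hist1h4n*, *Hist1h2ap* and *Hist1h2br* of locus Hist1 A and *Hist2h3c1* and *Hist2h3c2* of Hist2. None of them had a promoter peak. How reads that match several places were treated is not given in the sources used here, and absence of a peak at these 8 genes cannot be read as absence of FOXC2.

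Among the 40 members with at least 80% unique promoters, all 11 H4 genes had a PBS promoter peak and 10 had an ADR promoter peak, against 11 of 29 other members in each list. Of the 19 between, none was an H4 gene and 6 had a promoter peak in each list. The H1 promoters were 100% unique. The medians were 73.1% for H2A, 72.1% for H2B, 89.7% for H3 and 95.8% for H4, so promoter uniqueness moved with histone type, and its part in the difference between H4 and the H2A and H2B genes was not tested. Within 300 bp on each side of the start, where the H4 summits lay, the H4 genes with a peak were less unique. There the share ran from 55.1% (*Hist1h4k*) and 61.6% (*Hist1h4j*) to 100% (*Hist4h4*). Of these genes only *Hist4h4* was not lower there than over its promoter window.

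**Figure D5:**
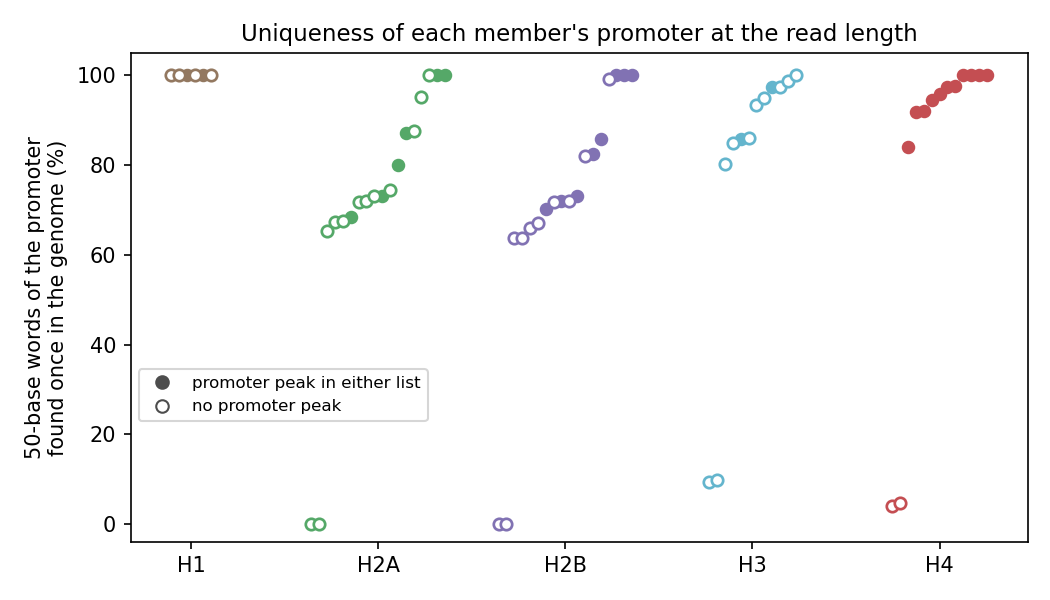
Percent of the 50-base words of each member's promoter window that occur once in GRCm38, by histone type, filled where either list has a promoter peak. Of the 13 H4 genes, the 11 filled points lie above 80% and the 2 open ones, *Hist1h4m* and *Hist1h4n*, below 10%.

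The genes that handle histones were compared by lists. Of all coding genes, 10.8% had more ADR than PBS peaks within 10 kb and 18.7% had fewer. The counts below are of single peaks, so a PBS peak split in the ADR list adds to them. Of 11 replication-independent and variant histone genes, 7 had a PBS and 6 an ADR promoter peak, and 5 had more ADR peaks within 10 kb and 2 fewer. *H2afz*, which encodes H2A.Z, had promoter folds of 37.6 in PBS and 41.7 in ADR, above those of all members. *H1f0*, the linker histone of resting cells, had 16.1 and 25.7, and *H2afx*, which encodes the H2A.X of the DNA damage response, had 17.7 and 17.7. *Cenpa*, the centromeric H3, had no peak.

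Of 13 genes of the histone locus body and of histone mRNA processing, 9 had a promoter peak in each list, while ADR peaks were more numerous at 0 and fewer at 2. *Npat* had 11.4 and 10.1. *Slbp*, whose product binds the stem-loop of histone mRNAs, had 30.5 in PBS and 20.8 in ADR. *Lsm11*, a subunit of the U7 snRNP, had 12.7 and 9.66. These 3 had the lower fold in ADR, and the other 5 genes of the list with a promoter peak in both lists had the higher, among them *Casp8ap2* (3.43 and 5.76) and *Lsm10* (6.507 and 6.511).

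Of 15 promoter factors and S phase kinases, 13 had a promoter peak in each list, while ADR peaks were more numerous at 4 and fewer at 2. *Hinfp* had 5.05 and 4.92. *Yy1* had 3 PBS and 5 ADR peaks within 10 kb, *Cdk2* had 2 and 3, and *E2f1* had 4 and 5. *E2f4*, an E2F of resting cells, had 5 PBS peaks and 1 ADR peak, the largest difference in these lists. Of 13 histone chaperones, 11 had a promoter peak in each list, while ADR peaks were more numerous at 0 and fewer at 3, among them *Atrx* (1 PBS and 0 ADR peaks) and *Daxx* (4 and 3).

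The promoter shares of these lists were 63.6% and 54.5% for variant histones, 69.2% and 69.2% for the locus body and processing, 86.7% and 86.7% for the factors and kinases, and 84.6% and 84.6% for the chaperones. The median difference in peak number was 0 in each list of genes, as it was over the members and over all coding genes. Cytosolic ribosomal protein genes, a family taken for comparison without matching for expression, had a promoter peak at 74 of 84 genes (88.1%) in PBS and 70 (83.3%) in ADR. These shares stand beside the 84.6% and 76.9% of the H4 genes and the 31.5% of the other members in each list. Over all coding genes the promoter shares were 44.1% in PBS and 41.5% in ADR.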

How the data were processed

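FOXC2 ChIP-seq peak lists from sorted podocytes of 3 PBS-treated and 3 ADR-treated samples were used. Single-end reads of 50 bp were trimmed, aligned to GRCm38 and called as narrow peaks with the nf-core/chipseq workflow by the authors, who describe 1 list per condition as pooled, although its peak names hold the R1 tag only. The version and threshold of the peak caller, the depth, and the treatment of multi-mapped reads are not given in the sources used here. Of the deposited columns, the fold enrichment (a ratio to the list's own control) and the −log10 q-value were used with the peak and summit positions. The −log10 p, score, name and strand were not used.

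Genes were taken from GENCODE M21 and sequence from the RefSeq copy of GRCm38. Peaks were assigned to a gene when they overlapped the 10 kb on either side of its start, and to a promoter when they overlapped the window from 1 kb before to 100 bp after it. Overlapping peaks (at least 1 bp) were merged into sites, with the strongest fold of each list. With 1 list per condition no test was made, and the 95% intervals cover counting error or the spread over sites only. The counting was tested on simulated peaks.

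The members and gene lists were chosen with earlier results of these data known. Some podocyte markers and the full strain name are not reported here. Of the lists of other histone genes and factors, the 3 largest and the 3 smallest differences in peak number were named, ties in order of symbol. Further genes, the motifs GGTCCG and AAACACA and the merged-site counts were chosen after their values were seen. Python 3.11.15, NumPy 2.4.6, pandas 2.3.3, SciPy 1.17.1, statsmodels 0.14.6, numba 0.67.0 and matplotlib 3.10.9 were used.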

Additional observations from a re-analysis of the deposited data

How the results depend on the processing

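Each condition has 1 list, described as pooled, so no value has an error between mice. Depth could not be compared, and folds of the lists are not on a common scale. With 1 list per condition no paired analysis was possible, and no replicate could be left out. Peaks at near-identical genes depend on how multi-mapped reads were treated. Of 118 values under alternatives for 26 results, 90 stayed within the limits set for them and 28 moved. Several differences between the lists turned direction. ADR peaks were more often more than fewer within 1 kb and 5 kb (10 and 8 members within 5 kb). Distinct peaks numbered 25 in PBS and 27 in ADR within 1 kb, 30 and 30 within 5 kb, and 45 and 47 within 50 kb. H4 genes with a summit in the promoter numbered 9 and 10. Median cluster folds were 6.43 and 6.63 at −log10 q of at least 5. The median log2 differences kept their sign. The causes of the moves were not tested beyond the alternatives' own construction.

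Within 1 kb of the start, 31 members had a PBS peak and 30 an ADR peak, and the ADR peaks outnumbered the PBS peaks at 5 members and fell short at 2. Within 5 kb, 8 had fewer. Within 50 kb, 25 had more and 31 fewer. With merged sites, 5 had more. With peaks of −log10 q of at least 5, 23 had fewer, and 11 members other than H4 had an ADR promoter peak. With the 20000 peaks of the smallest q in each list, 7 members had more ADR peaks, 15 PBS and 9 ADR peaks remained, 6 H4 genes had an ADR promoter peak, and 5 other members had a PBS and 1 an ADR promoter peak. With a fold of at least 5, 9 other members had a PBS and 11 an ADR promoter peak. With promoters at least 80% unique, 11 did in each list. The share of ADR peaks without a PBS partner was 30.3% when 50% of both peaks had to overlap and 24.2% when summits had to lie within 200 bp. Divided by the median fold of its list's peaks that were called in both lists, the median cluster fold was 0.779 (PBS) and 0.701 (ADR). With GTAAACA alone, forkhead matches were at 2.78% of PBS and 3.03% of ADR cluster peaks. Within 50 bp of the summit, WT1 matches were at 8.33% and CCAAT matches at 13.9% of PBS cluster peaks. The median log2 difference of the H4 promoter sites was −0.52, −0.48 at the q limit of 5 and −0.67 with scaled folds. The merged sites and the alternatives for promoter peaks of H4 and other members were chosen after seeing the data.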
